A study of Mus musculus with 16 samples.

Results

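The 32 genes described here encode enzymes of sterol synthesis, enzymes of fatty acid synthesis, elongation and desaturation, and regulators and carriers tied to both. They were taken by exact gene symbol from a list of pathway members. The rule uses no measured value, but the list was drawn up with earlier results of these data known. All 32 were found once among the 22287 genes of the table, and all 32 were among the 12514 genes that passed the filter on low counts and were tested. RNA-seq was done on bone marrow derived macrophages (BMDMs) of C57BL/6J mice aged 8 weeks. Bone marrow cells were grown for 7 days with GM-CSF (GM) or M-CSF (M), on tissue culture treated polystyrene (TC) or on non-treated polystyrene (noTC), and were harvested at steady state or after 3 h of LPS, a bacterial ligand of Toll-like receptor 4. The 8 groups combine growth factor, dish and treatment and are written, for example, GM-TC or M-noTC-LPS. They hold 2 libraries each. No gene was deleted or transferred in any group, and the study tests how growth factor and dish shape the cells before and after LPS.

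Cholesterol is built from acetyl-CoA through mevalonate, squalene and lanosterol. Its enzymes are switched on together by SREBP-2, the product of Srebf2, when sterols in the endoplasmic reticulum are low, and Insig proteins hold SREBPs back when sterols are plentiful. SREBP-1, the product of Srebf1, is better known for genes of fatty acid synthesis, and the liver X receptors raise Srebf1 and several of the desaturases. In macrophages these pathways supply membranes and also change during responses to bacterial products, when 25-hydroxycholesterol made by Ch25h can suppress SREBP activity.

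Sequences just around the transcription start are shown for 4 members with different LPS responses. With TMM scaling, explained below, Hmgcs1 and Sc5d fell in GM and rose in M, Idi1 rose in every culture, and Elovl6 fell in every culture. They are given 5′ to 3′ from RefSeq on GRCm38.p6, from 250 bases before to 50 bases after the start. Capitals mark matches on either strand to TCACNCCAC, the core of a sterol regulatory element, or to CCAAT, which NF-Y binds and which reads ATTGG on the opposite strand. No match to one motif overlapped a match to the other in these windows.
Hmgcs1 (chr13:119690101-119690400, plus strand): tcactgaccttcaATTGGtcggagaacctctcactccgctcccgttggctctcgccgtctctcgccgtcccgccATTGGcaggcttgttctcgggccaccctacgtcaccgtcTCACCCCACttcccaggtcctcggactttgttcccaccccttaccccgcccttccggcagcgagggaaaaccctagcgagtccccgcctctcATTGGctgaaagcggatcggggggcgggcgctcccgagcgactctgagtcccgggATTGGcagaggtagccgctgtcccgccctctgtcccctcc
Sc5d (chr9:42264251-42264550, minus strand): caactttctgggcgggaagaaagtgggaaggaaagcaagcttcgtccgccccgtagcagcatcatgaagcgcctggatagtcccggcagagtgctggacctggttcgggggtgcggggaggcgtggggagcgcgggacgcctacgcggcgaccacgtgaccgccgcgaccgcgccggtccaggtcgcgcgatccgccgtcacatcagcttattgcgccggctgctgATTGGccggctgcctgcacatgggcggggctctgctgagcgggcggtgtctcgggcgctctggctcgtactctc
Idi1 (chr13:8885356-8885655, plus strand): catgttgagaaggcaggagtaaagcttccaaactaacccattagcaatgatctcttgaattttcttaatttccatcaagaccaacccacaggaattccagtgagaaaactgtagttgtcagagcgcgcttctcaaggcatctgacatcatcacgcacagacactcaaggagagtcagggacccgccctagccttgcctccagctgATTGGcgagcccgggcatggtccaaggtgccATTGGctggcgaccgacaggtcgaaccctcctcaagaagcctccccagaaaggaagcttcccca
Elovl6 (chr3:129532136-129532435, plus strand): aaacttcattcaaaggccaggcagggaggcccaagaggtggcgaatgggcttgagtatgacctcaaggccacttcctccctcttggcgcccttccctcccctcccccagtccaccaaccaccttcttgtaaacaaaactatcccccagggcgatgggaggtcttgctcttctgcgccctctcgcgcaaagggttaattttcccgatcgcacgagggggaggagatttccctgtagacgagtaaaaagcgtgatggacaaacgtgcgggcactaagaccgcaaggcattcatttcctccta
RefSeq windows were found for 25 of the 32 members, 30 windows in all. The members without a window were Fdps, Fdft1, Sqle, Stard4, Fads1, Scd1 and Scd2. TCACNCCAC was matched in 1 of the 30 windows, comparing with 1.24% of all 32851 windows. The match was in Hmgcs1 and began 137 bases before the start. Only these exact letters were searched, so other forms of the element were not counted. CCAAT was matched in 21 of the 30 (70%), comparing with 37.4% of all windows. Elovl6 held neither set of letters in this window. These matches are descriptions of the sequence, and the genome build behind the counts is not given in the sources used here.

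Totals lay between 17527802 and 31458363 counts per library, and the members together held 0.243% to 0.512% of them. Factors of TMM scaling, which sets libraries to a common level of most genes, were 1.11 to 1.39 in the steady-state libraries and 0.778 to 0.842 in the LPS libraries, so changes upon LPS are given with both TMM and plain library-size scaling where the direction depends on it. Macrophage markers (8 of 8 listed) summed to 19543 to 45588 CPM and adipocyte markers (5 listed) to at most 0.230 CPM in every library. Most of the macrophage sum was Lyz2, with group means from 13278.5 CPM in M-noTC-LPS to 39700 CPM in GM-TC. The 2 GM-TC libraries differed most from each other, with a chi-square per degree of freedom of 12.5 against 1.91 to 5.13 in the other groups. The study calls the libraries of a group biological replicates, but neither it nor the labels say that they came from separate mice or cultures. The p-values thus measure the spread between these libraries only. An exact permutation test of 2 against 2 libraries cannot go below p = 0.333, so the tests below are edgeR's quasi-likelihood tests over all 12514 genes and 16 libraries. Folds and log2 fold changes come from that fit, with 2 libraries a group, and a call means an adjusted p under 0.05. Levels are CPM after TMM scaling, except those of the marker lists. Marker genes and marker sums, here and below, are given as CPM by library size alone, without TMM factors.

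**Figure D1:**
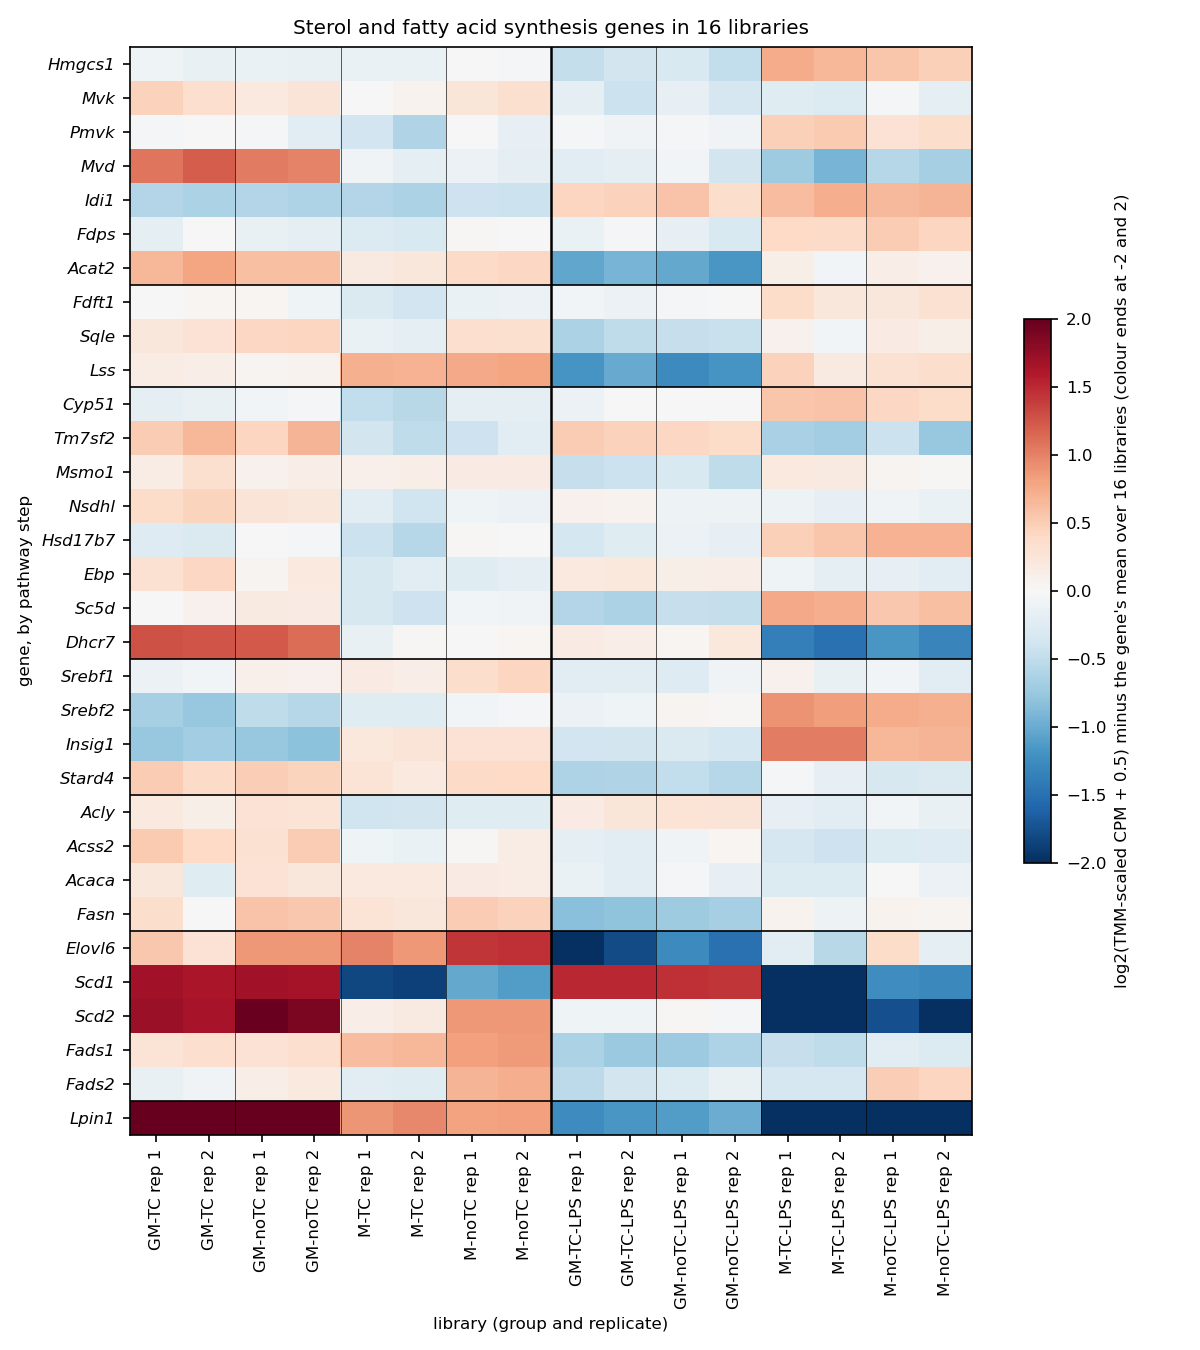
Level of each of the 32 genes in each of the 16 libraries, as log2(TMM-scaled CPM + 0.5) minus the gene's mean over the libraries; rows follow the pathway and columns the groups. Lpin1 and Scd2 are high at steady state and low after LPS. Scd1 is high in GM in both states, Dhcr7 is highest in GM at steady state, and Sc5d and Hmgcs1 are highest in the 4 M libraries with LPS.

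Upon LPS challenge the members mostly fell in GM-BMDMs and split in both directions in M-BMDMs. In GM-TC, 3 of 32 rose and 20 fell, where 32.8% and 34.2% of all genes tested rose and fell. In GM-noTC, 3 rose and 21 fell, against 33.6% and 34% of all genes. In M-TC, 13 rose and 14 fell, against 37.6% and 36.4%. In M-noTC, 11 rose and 16 fell, against 36.4% and 35.9%. The share of members that fell was thus above the background in GM, at 62.5% and 65.6%, and in M at 43.8% on TC and 50% on noTC. The share that rose was below it in GM and close to it in M.

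The median log2 fold change of the members was -0.34 in GM and -0.14 in M on TC, and -0.37 in GM and -0.20 in M on noTC. Over all genes tested it lay between -0.05 and -0.01. Scaled by library size alone, and giving GM before M and TC before noTC within each, the all-gene medians were -0.53, -0.54, -0.83 and -0.73, and the members called higher and lower became 2 and 30, 1 and 29, 5 and 24, and 1 and 28. Relative to the all-gene median of the same scaling, the members lay at -0.29, -0.33, -0.13 and -0.20 with TMM and at -0.29, -0.33, -0.13 and -0.20 with library size. A change of scaling shifts all genes of a comparison by nearly the same amount, so these values had to match and test nothing. On the TMM scale, every rise named below is a rise relative to the bulk of genes.

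Of the members, 12 fell in all 4 cultures, where 22.7% of all genes did. They were Mvk, Mvd, Lss, Dhcr7, Stard4, Fads1, Scd1, Scd2, Fasn, Acss2, Elovl6 and Lpin1. Idi1, Srebf2 and Insig1 rose in all 4, where 25% of all genes did. With library size Idi1 alone was called higher in all 4, Srebf2 was not called on noTC, and Insig1 was below 0. Hmgcs1 and Sc5d fell in both GM cultures and rose in both M cultures, a pattern held by 106 of the 12514 genes (0.847%). With library size both genes were below 0 in M-noTC, and Hmgcs1 was not called in M-TC.

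**Figure D2:**
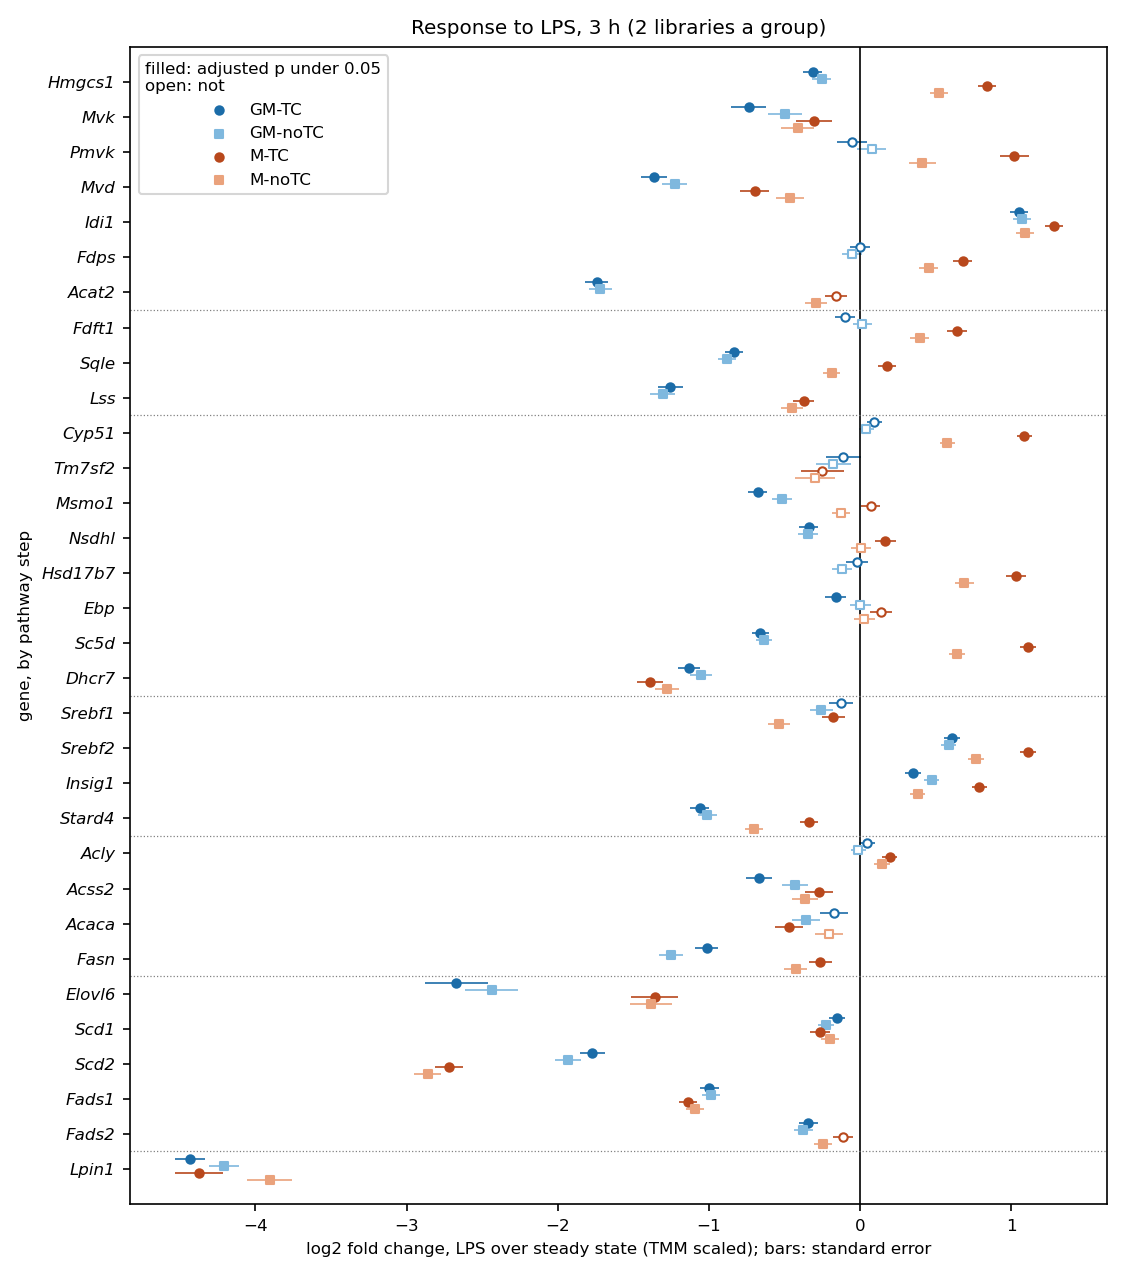
Log2 fold change upon LPS, on the horizontal axis, of each of the 32 genes in GM and M on both dishes; bars are standard errors of the fit, and filled points were called. Lpin1 lies near -4 in all 4 cultures, and Hmgcs1 and Sc5d lie on the left of 0 in GM and on the right in M on the TMM scale, their M-noTC points being the ones that change side with library size.

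Among the 7 genes of the mevalonate branch, which leads from acetyl-CoA to farnesyl diphosphate, 1 rose and 4 fell in each GM culture, while 4 rose and 2 fell in M-TC and 4 rose and 3 fell in M-noTC. Hmgcs1, whose product joins acetyl-CoA and acetoacetyl-CoA at the entry of the pathway, stood at 161 and 155 CPM in GM-TC and at 122 and 132 CPM in GM-TC-LPS. In M-TC it stood at 155 and 156 CPM and in M-TC-LPS at 285 and 272 CPM. On the TMM scale the steady-state libraries of both cultures overlapped, and the LPS libraries lay apart from them, below in GM and above in M. The log2 fold change was -0.31 ± 0.06 (SE; adjusted p = 0.000127) in GM-TC and 0.84 ± 0.06 (SE; adjusted p = 2.52e-11) in M-TC, where library-size scaling left 0.01. On noTC dishes it was -0.25 ± 0.06 (SE; adjusted p = 0.000979) in GM and 0.52 ± 0.06 (SE; adjusted p = 6.39e-08) in M, the latter turning to -0.20 with library size.

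Idi1, the isomerase that makes dimethylallyl diphosphate, rose in every culture. It stood at 159 and 153 CPM in GM-TC and 321 and 328 CPM in GM-TC-LPS. In M-TC and M-TC-LPS it stood at 159.8 and 155 CPM and at 368 and 396 CPM. All 8 LPS libraries lay above all 8 steady-state libraries. The rise was 2.08-fold in GM and 2.43-fold in M on TC, and 2.10-fold in GM and 2.13-fold in M on noTC, and it was also called in all 4 with library-size scaling.

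Acat2, which condenses acetyl-CoA to acetoacetyl-CoA, fell mainly in GM. It stood at 54.8 and 60.2 CPM in GM-TC and 16.5 and 17.8 CPM in GM-TC-LPS, 3.35-fold lower. In M-TC it stood at 39.2 and 40.3 CPM and with LPS at 37.6 and 33.4 CPM, a log2 difference of -0.16 that was not called (adjusted p = 0.052). Mvd, the decarboxylase that gives isopentenyl diphosphate, fell by a log2 of 1.37 in GM and 0.70 in M on TC, and 1.23 in GM and 0.47 in M on noTC. Mvk, mevalonate kinase, fell in all 4 with log2 fold changes of -0.74, -0.50, -0.30 and -0.41. Pmvk, the next kinase, and Fdps, farnesyl diphosphate synthase, rose in both M cultures and were not called in GM. In M-TC their log2 fold changes were 1.02 and 0.68 with TMM and 0.19 and -0.15 with library size, and in M-noTC both turned negative with library size.

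From squalene to lanosterol, Fdft1, Sqle and Lss encode squalene synthase, squalene epoxidase and the cyclase that closes the ring. Sqle stood at 119.7 and 125 CPM in GM-TC and at 65.8 and 71.2 CPM in GM-TC-LPS, and at 93.0 and 89.5 CPM in M-TC and 108 and 98.2 CPM in M-TC-LPS. Both GM libraries with LPS lay far below the others, while the M libraries moved little. On TC the log2 fold change was -0.84 ± 0.06 in GM and 0.18 ± 0.06 in M, on noTC it was -0.88 ± 0.06 and -0.19 ± 0.06, and the rise in M-TC turned to -0.65 with library size. Lss fell in all 4, 2.39-fold in GM-TC and 1.30-fold in M-TC. Fdft1 rose in M-TC by a log2 of 0.64 and in M-noTC by 0.39 with TMM, which turned to -0.19 and -0.33 with library size.

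Of the 8 genes between lanosterol and cholesterol, none rose in GM, where 5 fell on TC and 4 on noTC. In M-TC 4 rose and 1 fell, and in M-noTC 3 rose and 1 fell. Sc5d, the desaturase that acts late in the pathway, stood at 123 and 131 CPM in GM-TC and 81.8 and 79.4 CPM in GM-TC-LPS. It stood at 98.4 and 92.5 CPM in M-TC and 208 and 204 CPM in M-TC-LPS. GM libraries were above M libraries at steady state and below them after LPS, with no overlap in either state. On TC the fold was 1.58 down in GM (log2 -0.66 ± 0.05 (SE; adjusted p = 4.48e-10)) and 2.16 up in M (log2 1.11 ± 0.05 (SE; adjusted p = 1.54e-14)). The rise in M-TC was called with library size as well, at 0.29, whereas the rise in M-noTC of 0.64 ± 0.05 turned to -0.09.

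Cyp51, the lanosterol demethylase, stood at 149 and 143 CPM in M-TC and 308 and 314 CPM in M-TC-LPS, a 2.12-fold rise. In GM-TC it stood at 186 and 190.4 CPM and with LPS at 194 and 208 CPM, and the difference of 0.10 was not called. Hsd17b7, a ketoreductase of the same stretch, rose 2.05-fold in M-TC and 1.61-fold in M-noTC. The rises of both genes in M-TC were called with either scaling, and in M-noTC they turned to -0.15 and -0.04 with library size.

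Dhcr7, which completes one route to cholesterol by reducing 7-dehydrocholesterol, went the opposite way to Sc5d in M. It stood at 44.1 and 49.5 CPM in M-TC and 18.7 and 17.0 CPM in M-TC-LPS, and at 119 and 117 CPM in GM-TC and 54.4 and 53.2 CPM in GM-TC-LPS. Every LPS library lay below the steady-state libraries of its own culture. The fall was 2.62-fold in M-TC, 2.42-fold in M-noTC, 2.19-fold in GM-TC and 2.07-fold in GM-noTC. Msmo1, the sterol methyl oxidase, fell in GM by a log2 of 0.68 on TC and 0.52 on noTC. It was not called in M, and the difference between GM and M was called on both dishes. Nsdhl, a dehydrogenase that helps remove methyl groups at C4, fell by a log2 of 0.34 in each GM culture and stood at 0.17 in M-TC, which turned to -0.66 with library size. Ebp, a sterol isomerase, was called in GM-TC alone, at -0.16 ± 0.07. Tm7sf2, a sterol reductase, was not called in any culture, with log2 fold changes from -0.30 to -0.11.

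Of the regulators, Srebf2 rose in all 4 cultures. It stood at 128 and 119 CPM in GM-TC and 186 and 189.6 CPM in GM-TC-LPS, and at 171 and 170.0 CPM in M-TC and 377 and 359 CPM in M-TC-LPS. The rise was 1.52-fold in GM-TC and 2.16-fold in M-TC. With library size the log2 fold changes in the 4 cultures were 0.13, 0.08, 0.28 and 0.04, and those on noTC were not called. Insig1 stood at 173 and 179.8 CPM in M-TC and 306 and 304 CPM in M-TC-LPS. With TMM it rose 1.27-fold in GM and 1.73-fold in M on TC, and 1.39-fold in GM and 1.30-fold in M on noTC, but with library size its log2 fold change was below 0 in all 4 (-0.13, -0.03, -0.04 and -0.34). Srebf1 fell in GM-noTC, M-TC and M-noTC, most in M-noTC at -0.54 ± 0.08. Stard4, a cytosolic sterol carrier, fell by a log2 of 1.06 and 1.01 in GM and by 0.34 and 0.70 in M.

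The fatty acid genes fell or were not called, apart from Acly. Acly, ATP citrate lyase, which supplies acetyl-CoA to both pathways, rose by a log2 of 0.20 in M-TC and 0.15 in M-noTC, both turning negative with library size (-0.63 and -0.58). Fasn, fatty acid synthase, stood at 302 and 294 CPM in GM-noTC and 123 and 128 CPM in GM-noTC-LPS, 2.38-fold lower. In M-noTC it stood at 289 and 278 CPM and with LPS at 212 and 209.6 CPM, 1.34-fold lower. On either dish the fall was larger in GM by the test of the difference given below. Acss2, acetyl-CoA synthetase, fell in all 4, and Acaca, acetyl-CoA carboxylase, was called lower in GM-noTC and M-TC only.

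All 5 genes of elongation and desaturation were called lower in GM-TC, GM-noTC and M-noTC, and 4 in M-TC. Elovl6, which elongates palmitate, stood at 11.8 and 9.87 CPM in GM-TC and 1.40 and 1.95 CPM in GM-TC-LPS. It stood at 16.3 and 15.0 CPM in M-TC and 6.84 and 5.29 CPM in M-TC-LPS. All LPS libraries were below all steady-state libraries of the same growth factor, and the GM libraries with LPS were the lowest of all. The fall was 6.38-fold in GM and 2.56-fold in M on TC, and 5.42-fold in GM and 2.60-fold in M on noTC.

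Scd2, a stearoyl-CoA desaturase, stood at 905 and 854 CPM in GM-TC and 257 and 258 CPM in GM-TC-LPS. It stood at 301 and 310.1 CPM in M-TC and 48.1 and 44.7 CPM in M-TC-LPS. Unlike Elovl6, Scd2 lost more in M, where it fell 6.58-fold on TC and 7.26-fold on noTC, than in GM, where it fell 3.42-fold and 3.81-fold. Its paralogue Scd1 moved far less, by a log2 of -0.15, -0.22, -0.26 and -0.20 in the 4 cultures. Scd1 and Scd2 are close relatives, and the counting divides reads that fit both, so the split between them is uncertain. Fads1, a front-end desaturase of polyunsaturated fatty acids, also fell in each culture, with log2 fold changes of -1.14 on TC and -1.09 on noTC in M, and -0.99 on noTC in GM. Fads2, its partner, fell by a log2 of 0.34 and 0.38 in GM and 0.25 in M-noTC, and was at -0.11 in M-TC (adjusted p = 0.125).

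Lpin1, a phosphatidic acid phosphatase that makes diacylglycerol, had the largest LPS response of the 32 in each culture. It stood at 99.5 and 87.0 CPM in GM-TC and 4.14 and 4.46 CPM in GM-TC-LPS, and at 19.9 and 21.2 CPM in M-TC and 1.03 and 0.930 CPM in M-TC-LPS. No LPS library reached a steady-state library of either growth factor. The fall was 21.6-fold in GM-TC (log2 -4.43 ± 0.10 (SE; adjusted p = 3.87e-20)), 18.5-fold in GM-noTC, 20.7-fold in M-TC (log2 -4.37 ± 0.16 (SE; adjusted p = 1.22e-16)) and 15.0-fold in M-noTC. The smallest of these levels is above the 3 counts taken as the floor, which correspond to 0.0954 to 0.171 CPM by library size alone.

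**Figure D3:**
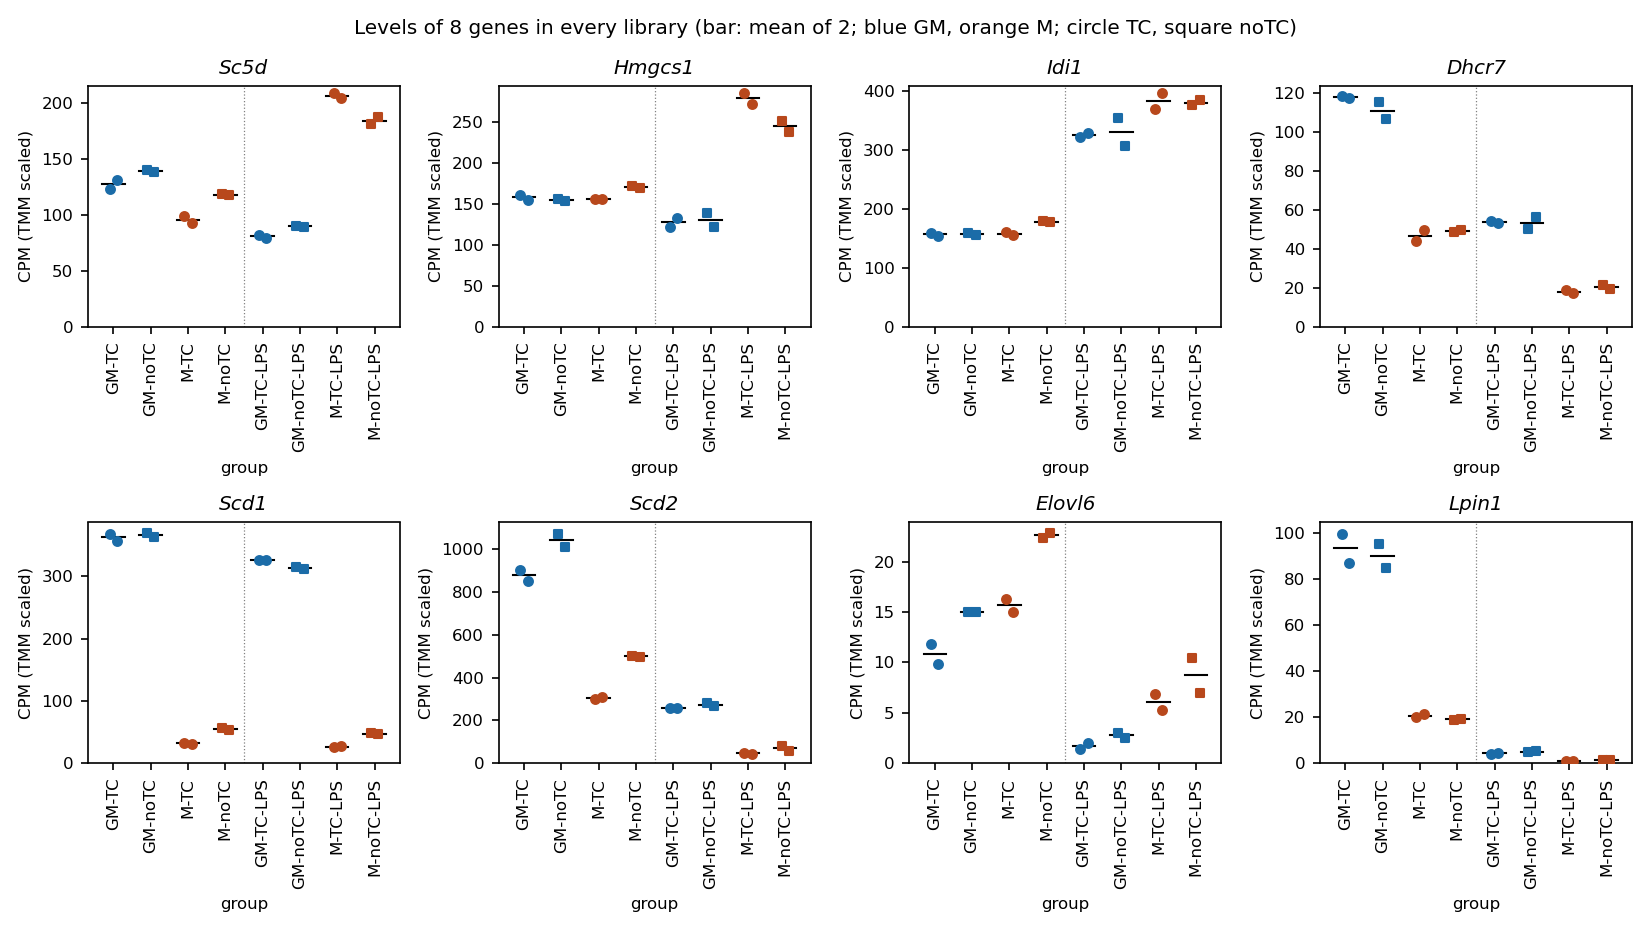
CPM after TMM scaling, on the vertical axis, of 8 members in every library, by group; points are libraries and bars the mean of 2, with blue for GM, orange for M, circles for TC and squares for noTC. Sc5d and Hmgcs1 go down with LPS in GM and up in M on the TMM scale. With library size neither goes up in M-noTC, and in M-TC only Sc5d is called higher. Idi1 goes up in all, and Scd1 stays high in GM and low in M.

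Whether LPS acted differently in GM and M was tested as a difference of log2 fold changes, GM minus M. On TC dishes 1 member was called higher and 22 lower, comparing with 17.8% and 23.3% of all genes tested. On noTC dishes 2 were called higher and 15 lower, comparing with 16.9% and 19.3%. With library size the counts were 8 and 14 on TC and 5 and 11 on noTC. The member median relative to that of all genes was -0.46 against -0.46 on TC and -0.29 against -0.28 on noTC, values that the scaling can hardly change. On TC all 7 mevalonate genes, all 3 genes from squalene to lanosterol and 6 of the 8 later sterol genes were called lower. Under library size Idi1 and Ebp lay at 0.12 and 0.05 on TC and so changed sign.

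The size of this difference was -1.77 ± 0.08 (SE; adjusted p = 4.48e-14) on TC and -1.28 ± 0.07 (SE; adjusted p = 9.61e-12) on noTC for Sc5d. For Acat2 it was -1.58 ± 0.11 (SE; adjusted p = 8.45e-11) and -1.43 ± 0.11 (SE; adjusted p = 4.03e-10). For Hmgcs1 it was -1.15 ± 0.09 (SE; adjusted p = 3.99e-10) and -0.78 ± 0.09 (SE; adjusted p = 1.91e-07). In all 3 genes the response in GM lay below that in M on either dish. Elovl6 gave -1.31 ± 0.28 and -1.06 ± 0.23, and Fasn -0.75 ± 0.11 and -0.82 ± 0.11. Scd2 was called in the opposite direction, at 0.95 ± 0.12 (SE; adjusted p = 1.65e-06) and 0.93 ± 0.12 (SE; adjusted p = 1.74e-06). For Lpin1 the difference was -0.06 on TC (95% interval -0.67 to 0.55), which was not called.

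At steady state the members differed between GM and M in both directions. On TC, 20 of 32 were higher in GM and 6 lower, where 32.6% and 28.9% of all genes tested were. On noTC, 13 were higher and 9 lower, against 31.4% and 30.7%. With library size these became 11 and 12 on TC and 7 and 19 on noTC, as the all-gene median then moved to -0.29 and -0.29. After LPS, 9 were higher in GM and 19 lower on either dish, against 33.9% and 32.9% of all genes on TC and 33.5% and 32.6% on noTC. There library size gave 9 and 18 on TC and 8 and 19 on noTC.

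Dendritic cell markers (4 listed) summed to 783 to 1080 CPM in the GM libraries and to 17.5 to 65.8 CPM in the M libraries, and neutrophil markers (6 listed) to 8.61 to 21.9 and to at most 1.34 CPM. Most of the dendritic cell sum was Itgax, at a mean of 1026 CPM in GM-TC. Ccr7, Zbtb46 and Flt3 stood there at 10.5, 1.96 and 0.181 CPM. Of the 8 macrophage markers, 3 were called higher and 5 lower in GM, on either dish and in either state. The part of these marker lists in the differences between GM and M was not tested. In bulk RNA, fewer cells of a type and less RNA per cell cannot be told apart. On TC, 9 members were higher in GM at steady state and lower in GM after LPS, a pattern of 4.19% of all genes, and no member went the opposite way. They were Pmvk, Fdps, Fdft1, Sqle, Cyp51, Hsd17b7, Sc5d, Stard4 and Acat2, of which Fdps, Hsd17b7 and Stard4 were below 0 at steady state with library size. On noTC, 3 members did so (Cyp51, Sc5d and Acat2), and all 3 were below 0 at steady state with library size.

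**Figure D4:**
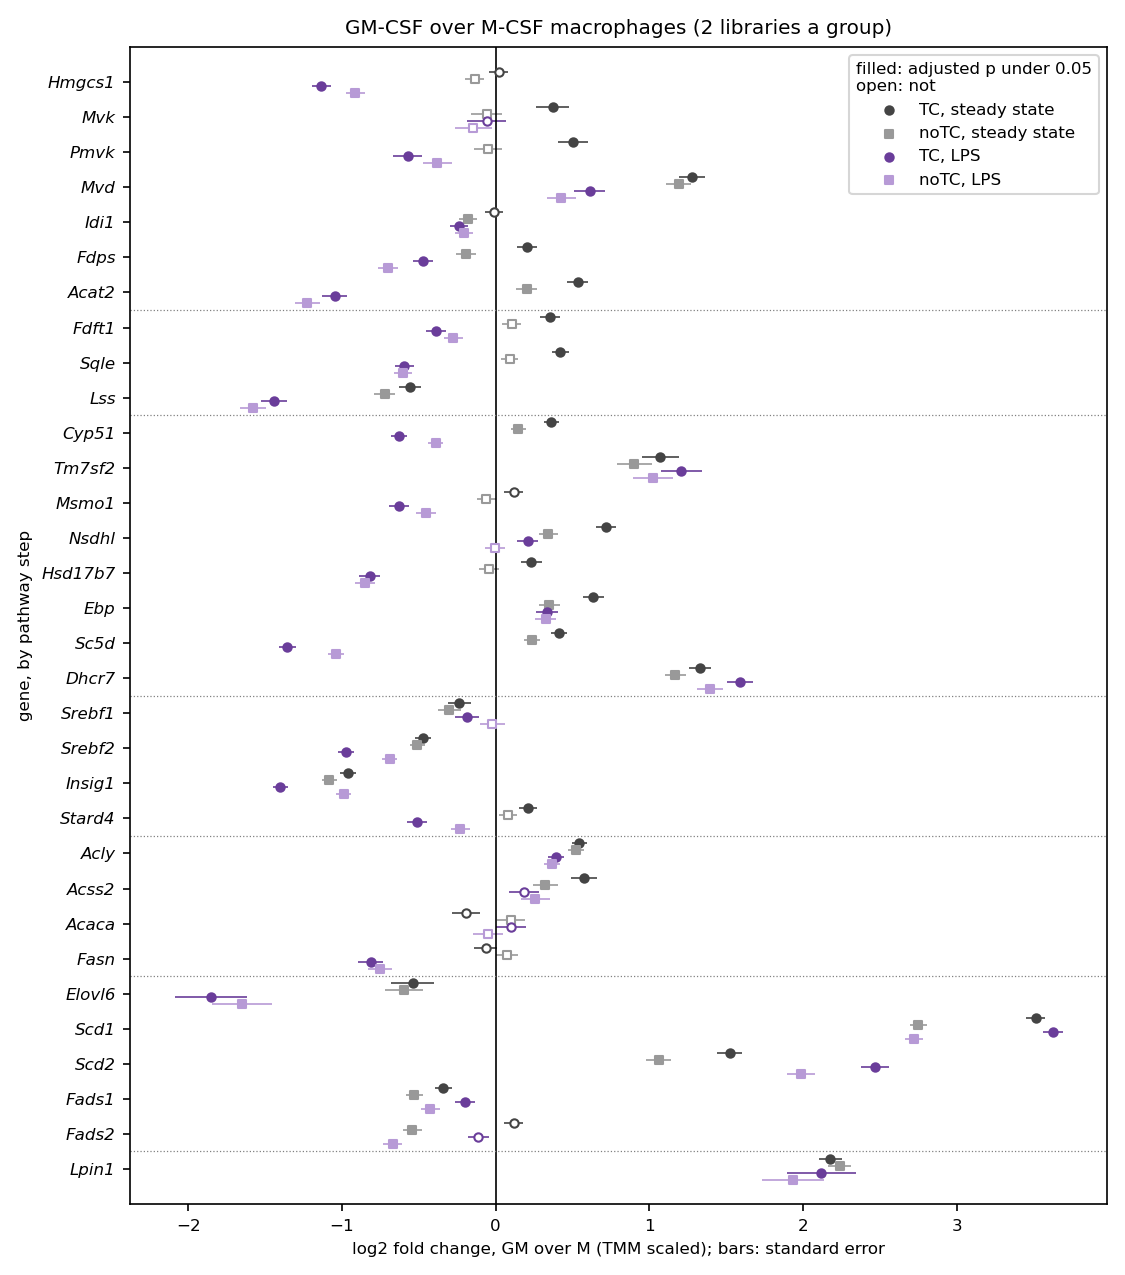
Log2 fold change of GM over M, on the horizontal axis, of each of the 32 genes on TC and noTC dishes, at steady state and after LPS; bars are standard errors of the fit, and filled points were called. Scd1 lies furthest to the right in all 4 comparisons, and Sc5d lies right of 0 at steady state (on noTC not with library size) and left of 0 after LPS.

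Of the members, 8 were higher in GM in all 4 comparisons, where 17.5% of all genes were. They were Mvd, Tm7sf2, Ebp, Dhcr7, Scd1, Scd2, Acly and Lpin1. The 5 lower in all 4, where 16.3% of all genes were, were Lss, Srebf2, Insig1, Fads1 and Elovl6. Library size turned none of these 13 to the other direction.

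Scd1, which desaturates stearate to oleate, had the largest difference between GM and M. It stood at 369 and 356 CPM in GM-TC and 32.2 and 31.3 CPM in M-TC, and at 369 and 364 CPM in GM-noTC and 56.3 and 52.6 CPM in M-noTC. After LPS it stood at 327 and 326 CPM in GM-TC-LPS and 25.1 and 27.8 CPM in M-TC-LPS. Each GM library was several times above each M library. The level in GM was 11.4-fold that in M on TC (log2 3.51 ± 0.06 (SE; adjusted p = 4.68e-22)), 6.74-fold on noTC, and 12.4- and 6.61-fold after LPS. Scd2 was higher in GM by 2.88-fold on TC and 2.09-fold on noTC at steady state, and by 5.54- and 3.97-fold after LPS.

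Lpin1 at steady state stood at 95.1 and 84.7 CPM in GM-noTC and 18.9 and 19.1 CPM in M-noTC. It was higher in GM by 4.53-fold on TC and 4.72-fold on noTC, and by 4.35- and 3.83-fold at the low levels after LPS. Dhcr7 was 2.52- and 2.25-fold higher in GM at steady state and 3.01- and 2.63-fold after LPS. Mvd stood at 78.0 and 85.8 CPM in GM-TC and 35.1 and 32.4 CPM in M-TC, 2.43-fold higher in GM, and Tm7sf2 at 15.2 and 17.1 CPM and 8.14 and 7.26 CPM, 2.10-fold higher. In each of these genes both GM libraries lay above both M libraries.

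Insig1 stood at 89.0 and 92.3 CPM in GM-TC and 173 and 179.8 CPM in M-TC. The M libraries lay above the GM libraries without overlap, 1.95-fold on TC and 2.12-fold on noTC at steady state, and 2.64- and 1.98-fold after LPS. Lss was 1.47- and 1.65-fold lower in GM at steady state and 2.72- and 2.98-fold lower after LPS. Srebf2 was lower in GM by a log2 of 0.47 and 0.51 at steady state and 0.97 and 0.69 after LPS. Elovl6 was 1.45-fold lower on TC and 1.51-fold lower on noTC, and 3.62- and 3.14-fold lower after LPS. With TMM, Hmgcs1 was at 0.02 between GM and M on TC at steady state (adjusted p = 0.782, 95% interval -0.11 to 0.15). It was 2.19-fold lower in GM after LPS. In the steady-state comparison the all-gene median was 0.02 with TMM and -0.29 with library size, so the value near 0 depends on scaling.

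Differences between dishes were called for more members in M-BMDMs than in GM-BMDMs. At steady state 19 members were higher in M-noTC than in M-TC and 0 lower, where 16.1% and 11.1% of all genes tested were. The 19 became 13 and 9 without replicate 1 and 2 of M-TC and 12 and 10 without replicate 1 and 2 of M-noTC, each with 0 lower. In GM-BMDMs 4 were higher and 1 lower on noTC, against 4.69% and 2.85%. After LPS, 6 were higher and 6 lower in M, against 10.4% and 12.9%. These became 5 and 2 without M-TC-LPS replicate 1, 4 and 4 without its replicate 2, 3 and 2 without M-noTC-LPS replicate 1 and 5 and 1 without its replicate 2. In GM after LPS edgeR called 0 in either direction, against 2.08% and 0.727% of all genes, with 7 members at an unadjusted p under 0.05 and 1 called by DESeq2. Library size gave 17 and 0 for M and 4 and 1 for GM at steady state, and 10 and 1 for M and 0 for GM after LPS.

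The 5 calls in GM were Elovl6 (0.48), Fasn (0.37), Fads2 (0.27), Hsd17b7 (0.25) and Ebp (-0.23), as log2 of noTC over TC. With the 4 libraries of that comparison alone 0 were called. The count was 12 and 2 without replicate 1 and 2 of GM-TC, and 1 and 2 without replicate 1 and 2 of GM-noTC.

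In M the 3 largest differences were in the desaturases. Fads2 stood at 66.3 and 65.0 CPM in M-TC and 123 and 127 CPM in M-noTC, and at 60.6 and 60.8 and 107 and 103 CPM after LPS. Both noTC libraries lay above both TC libraries in either state, 1.90-fold (log2 0.93 ± 0.06 (SE; adjusted p = 2.34e-10)) at steady state and 1.73-fold after LPS. Scd1 stood at 32.2 and 31.3 CPM in M-TC and 56.3 and 52.6 CPM in M-noTC, 1.71-fold higher, and was 1.80-fold higher on noTC after LPS. Scd2 stood at 301 and 310.1 CPM in M-TC and 501 and 497 CPM in M-noTC, 1.63-fold higher, and was 1.48-fold higher on noTC after LPS, where its libraries stood at 48.1 and 44.7 and 80.1 and 57.5 CPM. These 3 genes, with Hsd17b7, Fads1 and Elovl6, were the 6 members higher on noTC in M in both states, where 6.19% of all genes were.

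Of the sterol genes at steady state in M, Hsd17b7 stood at 28.1 and 25.5 CPM in M-TC and 38.9 and 38.2 CPM in M-noTC, and Sqle at 93.0 and 89.5 CPM and 129 and 128 CPM. Neither gene's libraries overlapped between the dishes, with log2 fold changes of 0.53 ± 0.07 and 0.49 ± 0.06. Pmvk, Cyp51, Fdps and Sc5d were higher by log2 0.43, 0.34, 0.31 and 0.31. After LPS the 6 lower on noTC in M were Insig1 (-0.35), Stard4 (-0.21), Hmgcs1 (-0.19), Cyp51 (-0.17), Sc5d (-0.17) and Srebf2 (-0.14), of which Insig1 alone was also called with library size.

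Heart muscle markers (6 listed) summed to 22.2 to 46.5 CPM in GM-TC and 45.9 to 77.9 CPM in M-TC at steady state, and to at most 0.633 CPM in every other group. They thus moved with the dish at steady state. After LPS, where these markers were at or under 0.633 CPM, the log2 differences between M dishes were 0.79 for Fads2, 0.84 for Scd1 and 0.57 for Scd2, the last being 0.31 without M-noTC-LPS replicate 1. Dendritic cell markers also moved with the dish in M, where they summed to 21.2 to 23.2 CPM in M-TC and 65.2 to 65.8 CPM in M-noTC, and after LPS to 17.5 to 19.3 and 45.4 to 50.2 CPM. Most of that sum was Itgax, and of the 3 tested 2 were called higher on noTC at steady state and 1 after LPS. In GM 0 of the 3 were called between dishes in either state. The part of either marker list in the dish differences was not tested. In the steady-state noTC libraries, 15 genes in GM and 19 in M had under 1 CPM in both TC libraries of the same growth factor, but a mean of at least 100 CPM over the LPS libraries and the noTC libraries of the other growth factor. Their excess over TC had a median of 0.675% and 0.600% of that mean. Subtracting this share reduced no member by more than 1.57%. The origin of this excess was not tested.

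**Figure D5:**
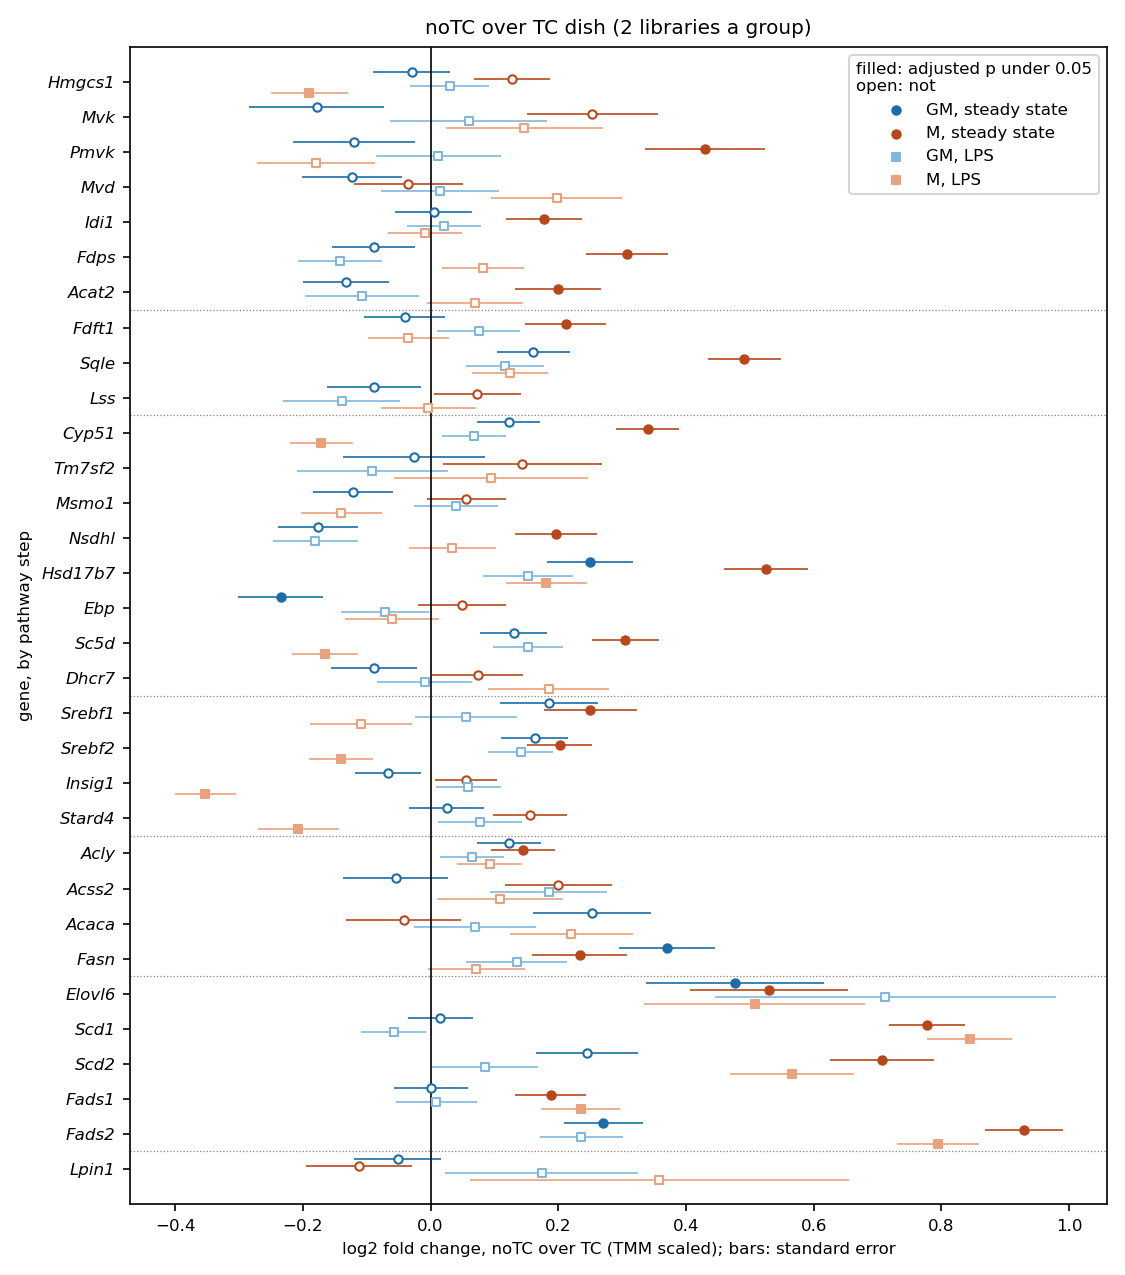
Log2 fold change of noTC over TC dishes, on the horizontal axis, of each of the 32 genes in GM and M at steady state and after LPS; bars are standard errors of the fit, and filled points were called. In M at steady state 19 points are filled and lie right of 0, with Fads2, Scd1 and Scd2 furthest out, and these 3 stay right of 0 after LPS.

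The difference of the dish effect between growth factors, GM minus M, was called lower for 9 members and higher for 0 at steady state, comparing with 6.4% and 4.82% of all genes tested. The largest were Scd1 at -0.76 ± 0.08 (SE; adjusted p = 8.83e-07) and Fads2 at -0.66 ± 0.09 (SE; adjusted p = 2.14e-05). After LPS 4 were called higher and 3 lower, comparing with 6.87% and 3.71%, and the 3 lower were Scd1 (-0.90), Fads2 (-0.56) and Scd2 (-0.48). With library size these counts were 0 and 8 at steady state and 1 and 6 after LPS, higher and lower.

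The difference of the LPS response between dishes, noTC minus TC, was called lower for 10 members and higher for 0 in M, comparing with 7.48% and 3.11% of all genes, and library size gave 6 lower. Cyp51, at -0.51 ± 0.07 (SE; adjusted p = 3.77e-05), and Sc5d, at -0.47 ± 0.07 (SE; adjusted p = 0.000183), had rises that were smaller on noTC. Pmvk gave -0.61 ± 0.13 (SE; adjusted p = 0.00416), and all 4 regulator and carrier genes (Srebf1, Srebf2, Insig1 and Stard4) were among the 10. In GM, edgeR called 0 members in either direction, against 0.192% higher and 0.591% lower of all genes, with 1 member at an unadjusted p under 0.05 and 0 called by DESeq2.

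Other genes of these pathways were read from 3 further lists. Of 15 tested sterol genes of 16 listed, 8 rose and 5 fell upon LPS in GM on TC and 7 and 5 on noTC, against 8 and 6 in M on TC and 8 and 6 on noTC. For these and the lists below, the shares of all genes were 32.8% to 37.6% higher and 34% to 36.4% lower over the 4 cultures. Of the 15, the share that fell, 33.3% to 40%, was thus close to that of all genes. With TMM the share that rose, 46.7% to 53.3%, was above that of all genes. With library size these counts became 1 and 11, and 1 and 10, in GM and 3 and 11, and 3 and 11, in M. Stard3, a late endosomal sterol carrier, rose by log2 1.40 to 1.55 on TC, and Soat1, which esterifies cholesterol, fell on TC by a log2 of 1.17 in GM and 1.35 in M.

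Of 21 tested fatty acid and lipid genes of 26 listed, 5 rose and 9 fell upon LPS in GM on TC and 5 and 8 on noTC, against 8 and 7 in M on TC and 7 and 6 on noTC. With library size these counts became 3 and 16, and 3 and 15, in GM and 2 and 16, and 2 and 15, in M. Dgat2, which makes triacylglycerol, stood at 0.707 and 0.604 CPM in GM-TC and 8.07 and 10.1 CPM in GM-TC-LPS, a 13.9-fold rise from a low level. In M it stood at 0.519 and 0.412 CPM in M-TC and 0.886 and 0.872 CPM in M-TC-LPS, low throughout and 1.89-fold higher with TMM. With library size the all-gene median of that M-TC comparison was -0.83, so the size of this rise depends on scaling. Hacd2, a dehydratase of the elongation cycle, rose by log2 1.39 in GM-TC and 1.75 in M-TC. Of 8 tested oxysterol and LXR genes of 9 listed, 5 rose and 2 fell in GM on TC and 5 and 3 on noTC, against 4 and 3 in M on TC and 4 and 1 on noTC. With library size these counts became 2 and 6, and 2 and 4, in GM and 1 and 7, and 1 and 7, in M. Ch25h, cholesterol 25-hydroxylase, stood at 1.16 and 1.16 CPM in M-TC and 164 and 199 CPM in M-TC-LPS, and at 6.51 and 6.12 CPM in GM-TC and 117 and 121 CPM in GM-TC-LPS. The LPS libraries of both growth factors lay far above, and the log2 rise was 7.28 ± 0.15 in M-TC and 4.24 ± 0.12 in GM-TC. Abcg1, a sterol exporter under LXR control, fell on TC by a log2 of 2.27 in GM and 1.26 in M, while Abca1, another exporter, rose by 1.30 and 0.29, the latter turning to -0.54 with library size.

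Between growth factors, 4 of the 15 other sterol genes were higher in GM and 7 lower on noTC at steady state, and 7 and 5 on TC, where 31.4% and 30.7% of all genes were on noTC and 32.6% and 28.9% on TC. With library size these counts became 1 and 11 on noTC and 3 and 8 on TC. Soat1 was higher in GM by log2 1.09 on TC, and Por, the reductase that feeds electrons to Cyp51, was lower (log2 -0.66). Between dishes in M at steady state, 6 of the 15 were higher on noTC and 0 lower, against 16.1% and 11.1% of all genes, among them Por (log2 0.38).

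Per kilobase of exon (GENCODE vM21), the members spanned a wide range of levels. Scd2 was highest on average over the groups at 77.1 CPM per kb, followed by Idi1 at 73.6, Acly at 62.3, Insig1 at 53.2 and Cyp51 at 48.8. Elovl6 was lowest at 1.62 CPM per kb, below Acss2 at 2.04 and Tm7sf2 at 2.57. The group means of Scd2 ran from 8.49 CPM per kb in M-TC-LPS to 191 in GM-noTC, and those of Lpin1 from 0.102 in M-TC-LPS to 9.65 in GM-TC. By the ratio of highest to lowest group mean Lpin1 and Scd2 had the widest ranges of the 32, and Acaca had the narrowest, between 4.60 and 6.63 CPM per kb.

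Across the 16 libraries, which share 8 groups and are not independent of them, the members did not follow 1 profile. The closest pairs by Pearson's r of log2 CPM were Scd1 with Tm7sf2 (r = 0.969), Dhcr7 with Scd2 (r = 0.967) and Elovl6 with Fasn (r = 0.962). The most opposed pair was Dhcr7 with Srebf2 (r = -0.970). With the mean standardised profile of the 17 sterol enzymes, r was highest for Sc5d (0.843), Fdft1 (0.746) and Sqle (0.722), and near 0 for Idi1 (0.0586), Dhcr7 (-0.0623) and Tm7sf2 (-0.0530), which belong to the same 17. Outside the members, the genes at 10 CPM or more with the most similar profile were Map2k3 (r = 0.949), Evl (0.911), Usp14 (0.899), Ptger4 (0.894), Slc7a5 (0.888), Pik3cd (0.879), Slc16a1 (0.866), Fkbp5 (0.863), Pacsin2 (0.861) and Nuak2 (0.856).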

How the data were processed

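RNA of 16 libraries of mouse BMDMs was sequenced by the authors on an Illumina NovaSeq instrument. The submitters' processing notes name fastp 0.18.0, Bowtie2 2.2.8, HISAT2, StringTie 1.3.1 and RSEM, and the methods state alignment with HISAT and quantification with RSEM. The genome build and annotation are not given in the sources used here. The deposited table holds expected counts per gene, made by the authors with RSEM and not normalized, and 6.56% to 8.19% of a library's gene values were not whole. RSEM divides reads that fit several genes, so values of paralogues such as Scd1 and Scd2 are uncertain.

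Expected counts were rounded to whole numbers. Groups came from the sample labels. Genes passing filterByExpr (12514) were scaled by TMM and tested in R 4.3.3 with edgeR 4.0.16 by the quasi-likelihood test in 1 model of 8 groups and 16 libraries, with Benjamini-Hochberg adjustment over all genes tested and a threshold of 0.05. The tests comprised 12 comparisons of 2 groups and 6 differences between such comparisons. The code was tested on simulated data. Members, pathway lists and marker lists were chosen with earlier results of these data known. All 32 members were candidates for naming, with up to 3 per direction and comparison by size of the called change as leads, and up to 3 called genes per comparison from each further list; some genes of these lists are not reported here by name. Alternatives were library-size scaling, DESeq2 size factors, no filter, a replicate block, only the libraries compared, leaving out each replicate, and DESeq2 1.42.0. Another was an unadjusted p with a fold change above 2 or, added after seeing the data, above 1.5 (the study used both). A further one subtracted from steady-state noTC libraries the share of other libraries' levels given above. With 2 libraries a group, differences in log2 had standard errors near 0.06 for most members. Same-numbered libraries did not deviate together (correlations of -0.064 to 0.020 over 12 comparisons), so the replicate numbers were not taken as pairs. Exon lengths came from GENCODE vM21 and windows around starts from RefSeq on GRCm38.p6.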

Additional observations from a re-analysis of the deposited data

Results flagged for a closer look

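The response to LPS differed between GM and M, by the test of the difference itself, for 23 members on TC (1 higher and 22 lower in GM) and for 17 on noTC (2 higher and 15 lower). With TMM, the called responses of 4 members on TC also had opposite signs in GM and M, and the differences were -1.154 for Hmgcs1, -1.016 for Sqle, -0.5072 for Nsdhl and -1.77 for Sc5d on the log2 scale. On noTC this held for Hmgcs1 (-0.7769) and Sc5d (-1.277). With library size the response in M on TC was -0.65 for Sqle, -0.66 for Nsdhl, 0.01 for Hmgcs1 and 0.29 for Sc5d. On noTC it was -0.20 for Hmgcs1 and -0.09 for Sc5d. Called responses of opposite sign were thus left on TC for Sc5d alone, as Hmgcs1 was not called in M, and on noTC for neither gene. With library size in place of TMM, Hmgcs1 and Sc5d stayed past the threshold for this difference on both dishes, at log2 -0.81 and -1.42 on TC and -0.56 and -1.06 on noTC.

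The response to LPS in M differed between dishes for 10 members, all lower on noTC. The effect of the dish differed between growth factors for 9 members at steady state, all lower in GM, and for 7 after LPS (4 higher and 3 lower in GM).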

How the results depend on the processing

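Of the 307 calls over the 32 members and 18 tests, library-size scaling lost 51. It turned 14 to a call in the opposite direction and changed the sign of 25 in all. DESeq2 lost 20, DESeq2 size factors 6, no filter 10, subtraction of the share of other libraries' levels 3 and only the libraries compared 18. The replicate block lost 4 and gained 9, and it moved a count past 1.5 times only for the dish in GM after LPS (1 in place of 0). That count was also 1 with DESeq2 and with its size factors and 2 without the filter. With an unadjusted p and a fold change above 2, counts were 10, 10, 11 and 6 for LPS in GM on TC and noTC and in M on TC and noTC. They were 6 and 6 for growth factor at steady state and 11 and 9 after LPS on TC and noTC, 7 and 3 for the growth factor by LPS difference, and 0 for every dish comparison and difference. With a fold change above 1.5, chosen after seeing the data, they were 17, 14, 16 and 10 for LPS, 9 and 9 for growth factor at steady state and 18 and 17 after LPS, and 16 and 10 for the growth factor by LPS difference. For the dish they were 0 in GM and 3 in M at steady state and 1 and 2 after LPS, with 0 and 1 for the dish by LPS difference in GM and M and 2 and 1 for the dish by growth factor difference. With only the libraries compared, the dish in GM at steady state gave 0. With library size, the dish by LPS difference in M gave 6, and the log2 response to LPS became -0.1312 and -0.03388 for Insig1 in GM-TC and GM-noTC and -0.03663 for Hsd17b7 in M-noTC. Leaving out 1 replicate at a time gave 1 to 12 calls for the dish in GM at steady state (12 without GM-TC replicate 1), 9 to 13 in M, 0 to 1 in GM after LPS and 5 to 8 in M after LPS. It gave 0 to 2 for the dish by LPS difference in GM and 6 to 10 in M, and 4 to 15 and 4 to 7 for the dish by growth factor difference at steady state and after LPS. The causes were not tested. The total counts for LPS and for growth factor stayed within 1.5 times under each setting but the fold thresholds, but library size moved their split by direction, for example from 13 to 5 higher for LPS in M-TC, from 11 to 1 in M-noTC and from 20 to 11 for growth factor on TC at steady state, and from 9 to 19 lower on noTC. With 2 libraries a group, dish differences near 0.2 on the log2 scale sit at the limit of what was called.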
